A study of Arabidopsis thaliana with 38 samples.

Results

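Nuclear RNA of the group labelled QC, the quiescent centre of the embryonic root, was compared with nuclear RNA of the whole embryo at the late globular stage of Arabidopsis thaliana. All arrays labelled with these nuclei at this stage were taken: 3 arrays of QC nuclei (QC_LG) and 4 of whole-embryo nuclei (EMB_LG), which makes 7 of the 38 arrays of the series, and all 27826 loci on the array were tested. Flowers were pollinated by hand and both groups were collected 100 h later. The nuclei were captured with INTACT, in which a tagged protein of the nuclear envelope is made in chosen cells and its tag is bound to beads. The RNA was then amplified, labelled with biotin and hybridised. The series design says that cell type-specific markers drove the tag, but the sources used here name neither the promoter used for the QC nor the one used for the whole embryo. The labels of both groups give no genotype and no treatment beyond the isolation of nuclei. Each replicate was a pool, so p-values measure the spread between pools. Unless stated otherwise, this spread was estimated from all 38 arrays together, not from QC_LG and EMB_LG alone. At loci where the QC_LG arrays varied more than this shared estimate, the p-values understate the spread of QC_LG. Suspensor (SUS_LG, 3 arrays), vascular (VSC_LG, 4 arrays) and ground tissue nuclei (GSC_LG, 3 arrays) of the same stage, isolated by the same protocol, served to show where QC_LG differed from other cell types.

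The quiescent centre is a small group of rarely dividing cells in the middle of the root meristem that keeps the stem cells around it undifferentiated. In the embryo it descends from the hypophysis, the uppermost cell of the suspensor filament, whose unequal division gives a small lens-shaped cell next to the embryo proper. Auxin response through the factor MP in the adjoining embryo cells specifies the hypophysis, WOX5 marks the cells that result, and factors of the PLETHORA, SCARECROW and SHORT-ROOT groups position the stem cell niche around them.

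All levels below are log2 of the deposited intensity, and all differences are QC_LG minus EMB_LG on that log2 scale, with the standard error (SE) of limma, unless another group is named. A locus counts as called where the p adjusted over all loci (Benjamini-Hochberg) was under 0.05. QC nuclei differed from whole-embryo nuclei at 417 loci, 1.5% of those tested: 204 were higher (0.733%) and 213 lower (0.765%), and 3319 loci had an unadjusted p under 0.05. The loci called higher had a median level of 5.18 in QC_LG and 2.72 in EMB_LG, and those called lower had 3.70 and 6.02. The 3 QC_LG arrays were less alike than the others. QC_LG 2 had an interquartile range of 1.03, against 1.16 to 2.06 in the other 16 arrays of this stage, and a mean correlation of 0.635 across loci with the other QC_LG arrays, whereas the EMB_LG arrays had 0.79 to 0.802 among themselves. QC_LG 1 correlated better with the EMB_LG arrays (0.74) than with its own group (0.694). Without QC_LG 2 the count was 385, with 289 higher and 96 lower, and 227 loci were called the same way in both fits. Without QC_LG 3 it was 149 (39 higher and 110 lower), without EMB_LG 3 it was 253, and without EMB_LG 4 it was 233. With only the 7 arrays of both groups in the fit, so that the spread is estimated from them alone, 43 loci were called. In RNA from pooled nuclei, fewer nuclei of a cell type and less RNA per nucleus cannot be told apart.

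**Figure D1:**
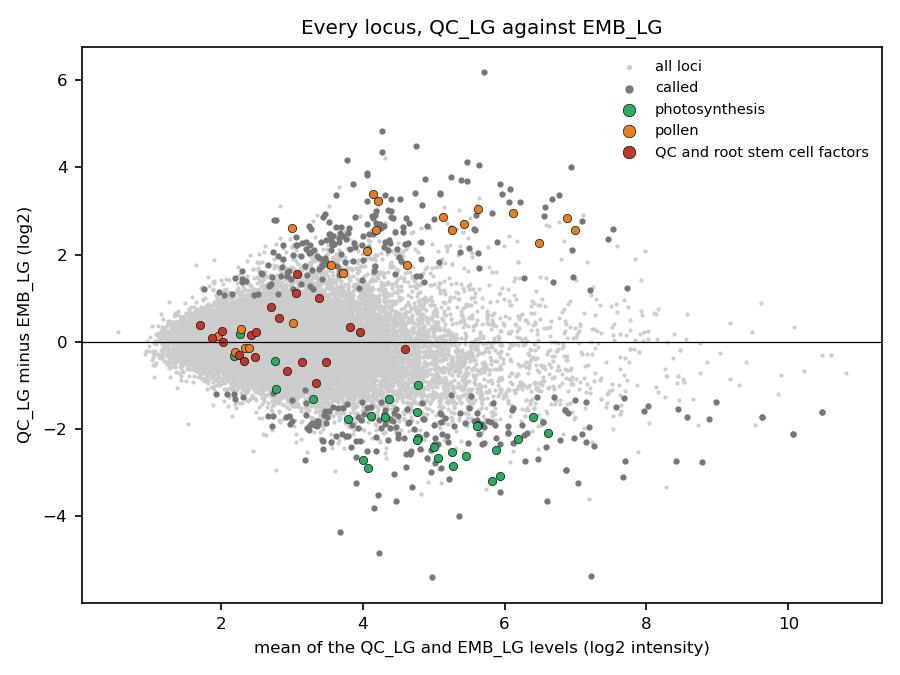
Difference between QC_LG and EMB_LG (log2, vertical axis) against the mean of the 2 group levels (log2 intensity, horizontal axis) for 27826 loci. Dark grey points are the 417 called loci, and coloured points are the members of 3 gene lists: 27 of the 28 photosynthesis genes lie below 0, most pollen genes above 0, and the QC and root stem cell factors on both sides of 0 at low levels.

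Of 21 transcription factors and other regulators known from the quiescent centre and the root stem cell niche, 1 was called, against a background of 1.5% of all loci. The median difference of the 21 was 0.153, while the median of all loci was 0.018, and 12 members were above 0. The list median was 0.09 without QC_LG 2 (all loci -0.048), 0.082 without QC_LG 3 (all loci 0.033) and 0.04 without EMB_LG 3 (all loci 0.028). WIP4 (AT3G20880), a zinc finger factor that acts with NTT and WIP5 in forming the distal root stem cells, was at 3.86, 2.93 and 4.75 in QC_LG and at 2.2, 2.28, 2.29 and 2.39 in EMB_LG. All QC_LG arrays were above all EMB_LG arrays, and WIP4 rose by 1.56 (SE 0.37, adjusted p = 0.0235). Over the 15 alternative fits the adjusted p ran from 0.00634 to 0.242, and the call was lost without QC_LG 3, without EMB_LG 1, 3 or 4, and with only the groups compared in the fit. Without QC_LG 2 WIP4 was higher by 2.02 (adjusted p = 0.00634). WIP4 was at 1.61 to 1.93 in SUS_LG, 1.73 to 2.48 in VSC_LG and 1.27 to 2.34 in GSC_LG. It exceeded the mean of these 3 cell types by 1.99 (SE 0.32, adjusted p = 0.00301), and no array of another group at this stage reached the lowest QC_LG array. That call was kept in 19 of 21 alternative fits and lost without QC_LG 3 and with only the groups compared in the fit. Its partners showed no such separation: NTT (AT3G57670) differed from EMB_LG by -0.005 and WIP5 (AT1G51220) by 0.08, and neither passed the test.

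WOX5 (AT3G11260), the homeobox factor that defines the quiescent centre, was at 3.42, 4.30 and 3.17 in QC_LG and at 2.85, 2.34, 1.91 and 2.91 in EMB_LG. The groups did not overlap, but the difference of 1.13 (95% confidence interval 0.345 to 1.91) did not pass the test (adjusted p = 0.153). Arrays that do not overlap between the groups were found at 9.56% of all loci, with QC_LG above at 4.53% and below at 5.03%. Against the mean of the other cell types WOX5 was higher by 1.42 (SE 0.33, adjusted p = 0.0401), a call kept in 10 of 21 alternative fits. It was higher than in SUS_LG by 2.02 (adjusted p = 0.0362), where its arrays were at 1.76, 1.38 and 1.70, but without SUS_LG 2 no locus was called in that comparison. Against GSC_LG the difference of 0.74 did not pass (adjusted p = 0.332), and GSC_LG 2 was at 4.28, beside the highest QC_LG array.

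**Figure D2:**
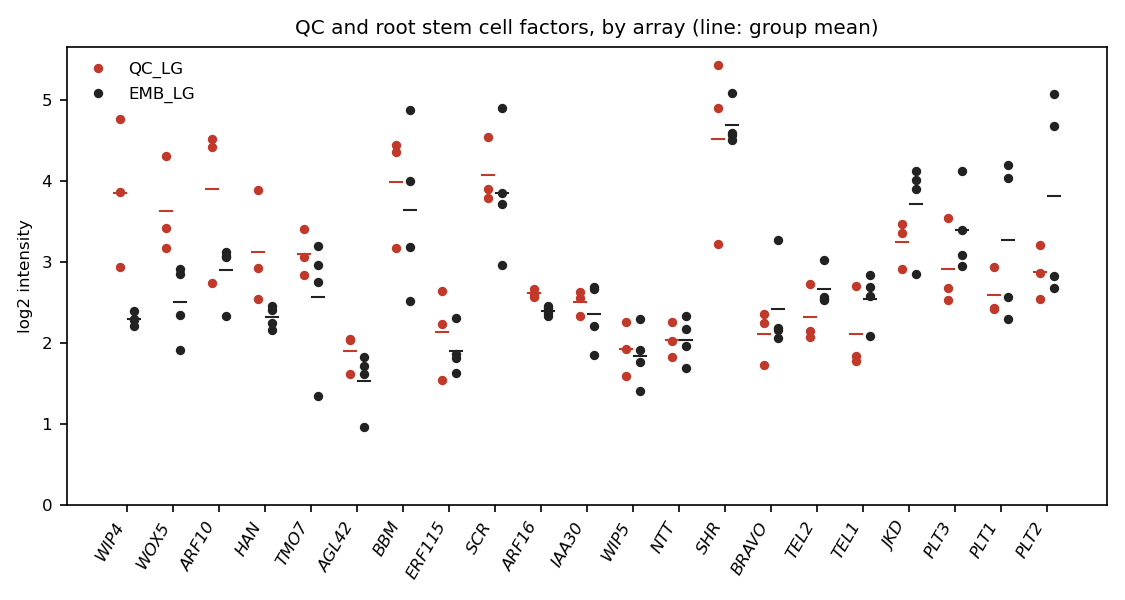
Level of the 21 QC and root stem cell factors (log2 intensity) in each QC_LG array (red) and EMB_LG array (black), ordered by the difference between the groups, with lines at group means. WIP4, WOX5, HAN and ARF16 show no overlap between the groups, and WIP4 is the gene of this list that was called.

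The factors that position the niche did not pass the test against EMB_LG in either direction. PLT1 (AT3G20840) and PLT2 (AT1G51190), PLETHORA factors whose dose sets root stem cell identity, differed by -0.68 (95% confidence interval -1.92 to 0.56) and -0.94 (-2.001 to 0.12). PLT2 was at 2.87, 3.21 and 2.54 in QC_LG, while EMB_LG was split, with 4.68 and 5.07 in EMB_LG 1 and 4 and 2.67 and 2.82 in EMB_LG 2 and 3. The related BBM (AT5G17430) differed by 0.35 and PLT3 (AT5G10510) by -0.47. SCR (AT3G54220), a GRAS factor of the quiescent centre and the ground tissue, was at 3.90, 3.78 and 4.54 in QC_LG, inside the EMB_LG range of 2.96 to 4.89 and below all GSC_LG arrays (5.14 to 5.92), although the difference from GSC_LG did not pass (-1.46, adjusted p = 0.0879). SHR (AT4G37650), which moves from the vascular cells into its neighbours, differed from EMB_LG by -0.17. JKD (AT5G03150), a zinc finger partner of SCR and SHR, differed by -0.47 from EMB_LG and was lower than in GSC_LG by -1.60 (adjusted p = 0.0403).

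The genes that read or shape auxin in the hypophysis gave no call. TMO7 (AT1G74500), a small factor that moves from the embryo into the hypophysis, was at 3.40, 2.83 and 3.06 in QC_LG and between 1.34 and 3.19 in EMB_LG. HAN (AT3G50870), a GATA factor that sets the lower boundary of the embryo proper, was at 3.88, 2.92 and 2.54 and in EMB_LG between 2.15 and 2.46. These HAN values do not overlap, and the difference of 0.80 did not pass (adjusted p = 0.596). ARF10 (AT2G28350), an auxin response factor that restricts WOX5 on the root cap side, was at 4.42 and 4.51 in QC_LG 1 and 3 but at 2.74 in QC_LG 2, within the EMB_LG range of 2.33 to 3.12. Its difference of 1.00 had an interval of 0.145 to 1.85 (adjusted p = 0.296). Its partner ARF16 (AT4G30080) was at 2.57 to 2.67 in QC_LG and 2.33 to 2.45 in EMB_LG, a small difference of 0.21 between groups that do not overlap (adjusted p = 0.873). The remaining list members, AGL42, BRAVO, ERF115, TEL1, TEL2 and IAA30, differed by -0.44 to 0.37. BRAVO (AT5G17800), which holds back division of the quiescent centre, differed by -0.32, and ERF115 (AT5G07310), which promotes it, by 0.23.

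Beyond these, 0 of 55 auxin response genes were called, with 7 at an unadjusted p under 0.05 in limma and a median difference of -0.138, which was 0.054 without QC_LG 3, -0.03 without EMB_LG 2 and -0.08 with quantile normalization. IAA27 (AT4G29080), an Aux/IAA repressor, was at 4.21, 4.70 and 4.74 in QC_LG and at 2.31 to 3.44 in EMB_LG (1.51, adjusted p = 0.164), and ARF19 (AT1G19220), an activating response factor, was at 2.71 to 2.92 against 0.83 to 1.66 (1.44, adjusted p = 0.179). In both genes all QC_LG arrays were above all EMB_LG arrays. MP (AT1G19850) overlapped between the groups (-0.999, interval -2.21 to 0.21). Of 24 genes of auxin transport and synthesis 0 were called in limma and 4 had an unadjusted p under 0.05. AUX1 (AT2G38120), an influx carrier, was at 3.36, 3.44 and 2.99 in QC_LG and at 5.61, 3.74, 4.92 and 5.17 in EMB_LG, and its difference of -1.59 (SE 0.47) missed the threshold (adjusted p = 0.0764). The related carrier LAX1 (AT5G01240) differed by -0.83 (adjusted p = 0.251), again without overlap. Both were lower than in GSC_LG in the main fit, AUX1 by -2.16 (adjusted p = 0.0134) and LAX1 by -1.43 (adjusted p = 0.0206). Of 20 cytokinin genes 0 were called in limma and 2 had an unadjusted p under 0.05, with 16 below 0 and a median of -0.17 (-0.299 without QC_LG 2). The lowest p there belonged to the response regulator ARR1 (AT3G16857, -1.32, adjusted p = 0.179) and the receptor AHK3 (AT1G27320, -1.13, adjusted p = 0.24). Of 9 root peptide and receptor genes 0 were called in limma, with 0 at an unadjusted p under 0.05; TPST (AT1G08030), which sulfates root growth peptides, differed by 0.66 (adjusted p = 0.498).

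Because the quiescent centre divides rarely, cell cycle genes were listed by phase. Of 19 S phase genes 1 was called, against 1.5% of all loci, and 16 were below 0 with a median of -0.521. The median was -0.312 without QC_LG 1 and -0.319 without EMB_LG 1, and 2 members were called without EMB_LG 2. MCM6 (AT5G44635), part of the helicase that opens DNA for replication, was at 2.56, 2.82 and 3.13 in QC_LG and at 4.30, 3.55, 4.31 and 5.17 in EMB_LG. It fell by 1.495 (SE 0.34, adjusted p = 0.0167), with no overlap, and lost the call without QC_LG 1, without EMB_LG 4 and with only the groups compared in the fit. The other S phase genes did not pass, PCNA2 included (-1.54, adjusted p = 0.101). Of 21 genes of G2 and M phase 0 were called in limma, 6 had an unadjusted p under 0.05, all 6 of them lower, and the median was -0.345. It was -0.073 without EMB_LG 4, -0.636 without EMB_LG 2 and -0.527 without EMB_LG 3, and 2 members were called lower without EMB_LG 2 and with quantile normalization. HIK (AT1G18370), a kinesin of cytokinesis, was at 1.73, 2.46 and 2.21 in QC_LG and at 3.17 to 4.29 in EMB_LG (-1.72, adjusted p = 0.096). PLE (AT5G51600), a microtubule-bundling protein of cytokinesis, was at 2.2 to 2.78 against 2.97 to 4.07 (-1.10, adjusted p = 0.0706). The median per array of the S phase list shows that EMB_LG itself was uneven, at 4.39 and 4.98 in EMB_LG 1 and 4 and 3.41 and 3.26 in EMB_LG 2 and 3, against 3.09, 2.97 and 3.92 in QC_LG. Against GSC_LG, 5 of the 21 G2 and M phase genes and 2 of the 19 S phase genes were lower, where 1.92% of all loci were called lower. Among these genes KN, a syntaxin of the forming cell plate, was lower by -2.82 (adjusted p = 0.00977) and HIK by -2.49 (adjusted p = 0.0127). Both values are from the main fit. With the interquartile range of each array as a covariate, 66 loci in place of 861 were called against GSC_LG. For KN and HIK the result of that fit is not given here. The difference between the comparisons with EMB_LG and with GSC_LG was not tested. Against SUS_LG and VSC_LG, 0 genes of either list were called in limma, where 0.101% and 0.0683% of all loci were. The G2 and M phase median was 0.227 against SUS_LG and -0.197 against VSC_LG. That of S phase was 0.251 and -0.019. Per array, the G2 and M phase median was 2.3 to 2.457 in QC_LG, 2.197 to 2.325 in SUS_LG and 2.361 to 2.565 in VSC_LG.

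Of 20 D cyclins, CDK inhibitors and the retinoblastoma homologue RBR1, 0 were called in limma and 4 had an unadjusted p under 0.05. KRP6 (AT3G19150), an inhibitor of cyclin-dependent kinases, was at 4.05, 4.90 and 5.19 in QC_LG and at 3.02 to 3.65 in EMB_LG (1.35, adjusted p = 0.193). CYCD3;2 (AT5G67260), a D cyclin, was at 3.28 to 4.1 against 4.58 to 5.07 (-1.23, adjusted p = 0.254), and it was lower than in GSC_LG by -2.12 (adjusted p = 0.0198). Both genes separated the QC_LG from the EMB_LG arrays without passing the test.

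Of 23 genes of DNA methylation and Polycomb silencing, 2 were lower, where 0.765% of all loci were, and 18 were below 0 with a median of -0.373. The median was -0.21 without EMB_LG 1 and -0.574 without EMB_LG 3. VIM1 (AT1G57820), which helps the methyltransferase MET1 to copy CG methylation onto new DNA, was at 3.26, 3.69 and 2.58 in QC_LG and at 6.19, 4.89, 6.16 and 6.95 in EMB_LG. It fell by 2.87 (SE 0.60, adjusted p = 0.00828), and the call was lost without QC_LG 3 and with only the groups compared in the fit. AGO4 (AT2G27040), an Argonaute protein of RNA-directed DNA methylation, was at 3.71 to 4.57 against 5.36 to 6.71, a fall of 1.67 (SE 0.45, adjusted p = 0.0461) that passed in 6 of 15 alternative fits and was lost without QC_LG 2 or 3 and without EMB_LG 1, 3 or 4. No call was left in this list without QC_LG 3 or with only the groups compared in the fit. VIM1 ran from 2.43 to 3.69 in SUS_LG, 3.08 to 5.86 in VSC_LG and 6.67 to 7.23 in GSC_LG, so that it was low in the suspensor as well as in QC_LG. MET1 differed by -0.94 (adjusted p = 0.352).

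Photosynthesis genes were lower: 20 of 28 were called, where 0.765% of all loci were, and the list median was -2.01 against 0.018 for all loci. Of the 28 genes 27 were below 0, the exception being the regulator GLK1 (AT2G20570, 0.17). With only the 7 arrays of both groups in the fit, 7 of the 28 were called. LHCA4 (AT3G47470), an antenna protein of photosystem I, was at 4.99, 4.07 and 4.13 in QC_LG and at 7.59, 7.59, 7.30 and 7.41 in EMB_LG. It fell by 3.08 (SE 0.34, adjusted p = 1.83e-06) and was called in all 15 alternative fits. The reaction centre subunit PSAF (AT1G31330) fell by 2.48 (SE 0.36, adjusted p = 0.000234), from a range of 6.80 to 7.88 in EMB_LG to 3.83 to 5.14 in QC_LG. The antenna protein LHCB5 (AT4G10340) fell by 2.62 and the carbonic anhydrase CA1 (AT3G01500) by 2.42, both without overlap and both called in all 15 alternative fits. The small subunit of Rubisco showed a wide range. RBCS1B (AT5G38430) had the largest fall of any locus, 5.41 (SE 0.57, adjusted p = 1.23e-06), with 2.03, 1.55 and 3.23 in QC_LG and 7.0 to 8.30 in EMB_LG, whereas RBCS1A (AT1G67090) fell by 2.10. The copies next to RBCS1B, RBCS2B and RBCS3B, named here after their values were seen, differed by -1.87 (adjusted p = 0.0952) and -1.12 (adjusted p = 0.165). Transcripts of these copies are so alike that probes may be shared, and their separate values are uncertain, as are those of LHCB2.2 (AT2G05070), which fell by 2.67. Other plastid proteins among the largest falls were PSBX (AT2G06520, by 3.21) and PSBTN (AT3G21055, by 3.16), small subunits of photosystem II, and PSRP4 (AT2G38140, by 2.99), a plastid ribosomal protein.

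The summed intensity of the photosynthesis list was 439.6 to 601.3 in QC_LG and 1953 to 2429 in EMB_LG. It was 551.3 to 765.6 in SUS_LG, 579.8 to 907.2 in VSC_LG and 694.3 to 919.2 in GSC_LG, so that EMB_LG lay above QC_LG and above each of these. Against the mean of the other cell types, 1 of the 28 genes was called, LHCA4 (-1.52, adjusted p = 0.0121), with a list median of -0.395 against 0.034 for all loci and 0.478% of all loci called. Genes encoded in the plastid were lower too, 5 of 14 called and 13 below 0 with a median of -1.77, as were 11 of 92 mitochondrial loci with a median of -0.961, where 0.765% of all loci were called lower. ATCG00970 and ATCG01160 among the plastid calls have identical values, as have ATMG00170 and ATMG00620 among the mitochondrial ones, so that each pair is 1 measurement. The calls ATCG00020, ATCG00140, ATMG00270, ATMG00285 and ATMG00830 also have exactly the values of another locus, which is not among these calls. These organelle transcripts were uneven within QC_LG: the plastid median was 8.08 in QC_LG 1, above 3 of the 4 EMB_LG arrays, but 5.16 and 5.04 in QC_LG 2 and 3. EMB_LG spanned 6.41 to 8.09. The mitochondrial median was 6.16 in QC_LG 1, 3.93 in QC_LG 2 and 5.25 in QC_LG 3, against 5.78 to 6.90 in EMB_LG. The part of organelle RNA in the nuclear preparations in these differences was not tested.

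**Figure D3:**
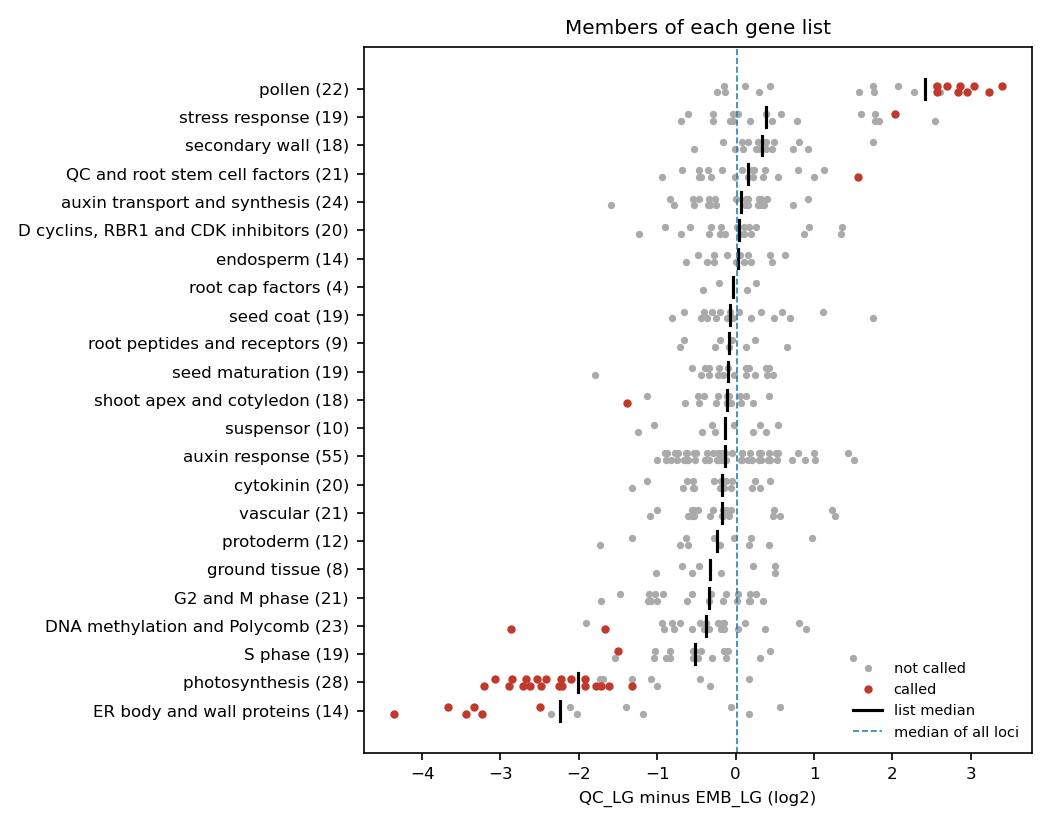
QC_LG minus EMB_LG (log2, horizontal axis) for every member of 23 gene lists, with the number of members in brackets. Red points are called genes, black bars are list medians and the dashed line is the median of all loci, 0.018; the medians of the pollen list (2.42) and of the photosynthesis (-2.01) and ER body and wall lists (-2.24) lie farthest from it.

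Genes of ER bodies and of the cell wall were the other group that was lower: 6 of 14 were called, against 0.765% of all loci, with a list median of -2.24. PYK10 (AT3G09260), the beta-glucosidase stored in ER bodies of seedlings and roots, was at 5.06, 3.06 and 4.52 in QC_LG and at 7.65, 7.0, 7.88 and 8.07 in EMB_LG. It fell by 3.44 (SE 0.59, adjusted p = 0.00129), and its binding protein PBP1 (AT3G16420) fell by 3.24 (SE 0.56, adjusted p = 0.00157). NAI2 (AT3G15950), needed to form ER bodies, differed by -2.36 and missed the threshold (adjusted p = 0.0551). The glycine-rich protein GRP9 (AT2G05440) was at 1.39 to 1.69 in QC_LG and at 5.57 to 6.41 in EMB_LG and fell by 4.36 (SE 0.69, adjusted p = 0.000479). The wall proteins CWLP (AT3G22120), EXT4 (AT1G76930) and DOT1 (AT2G36120) fell by 3.34, 2.49 and 3.67. GRP9, PYK10 and CWLP were called in all 15 alternative fits, while EXT4 was called in 9 and DOT1 in 10. With only the 7 arrays of both groups in the fit, 3 of the 14 were called. The long noncoding RNA AT3G22121, whose locus lies within that of CWLP in the RefSeq gene table, was at 3.88 to 5.43 in QC_LG and 8.73 to 10.48 in EMB_LG and fell by 5.37 (SE 1.00, adjusted p = 0.00342). Signals of overlapping loci cannot be told apart here if probes are shared. The list median per array was 2.58 to 3.01 in QC_LG and 4.89 to 6.40 in EMB_LG. It was 2.49 to 3.77 over the other cell types, and 0 of 14 members were called against their mean in limma.

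Other named falls were MT1A (AT1G07600), a metallothionein, by 3.1 (SE 0.55, adjusted p = 0.00205), and RCI2B (AT3G05890), a small membrane protein induced by cold. RCI2B was at 3.00, 2.44 and 3.34 in QC_LG and at 5.87, 6.30, 6.15 and 5.51 in EMB_LG, without overlap, and fell by 3.03 (SE 0.48, adjusted p = 0.000474). Among loci without a symbol, the small nucleolar RNA AT1G12015 fell by 4.85, the transcribed pseudogene AT2G07600 by 4.00 and the protein-coding locus AT5G17900 by 3.81.

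**Figure D4:**
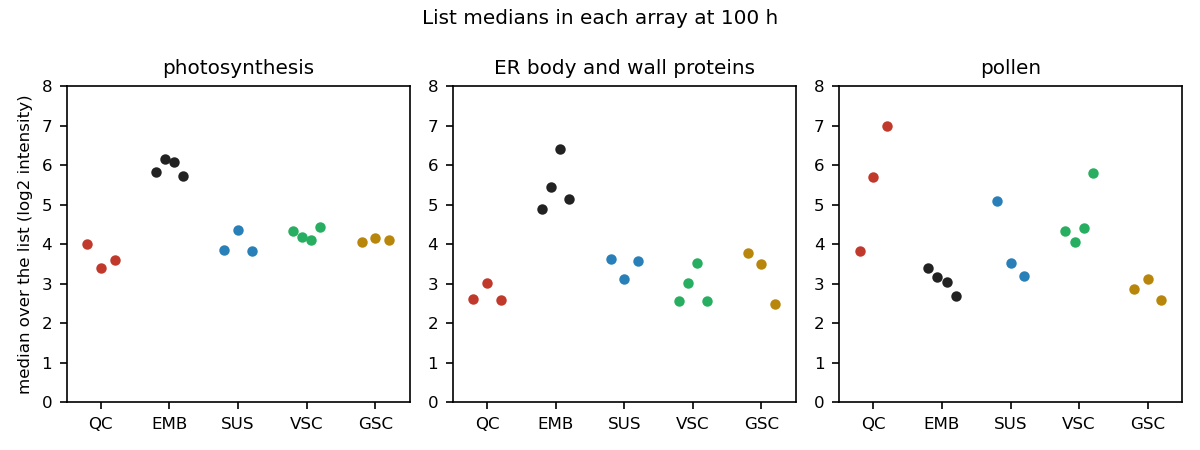
Median level of the photosynthesis, ER body and wall, and pollen lists (log2 intensity, vertical axis) in each of the 17 arrays of the stage, by group. In the first and second panels the 4 EMB_LG arrays lie above all others; in the third, QC_LG spans 3.82 to 6.98 and overlaps with VSC_LG and SUS_LG.

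Of the 22 genes listed for pollen and pollen tubes, 9 were called higher, where 0.733% of all loci were, and 19 were above 0 with a median of 2.42. The rises included AGP6 (AT5G14380), an arabinogalactan protein of pollen, at 6.11, 7.58 and 9.08 in QC_LG and 5.54, 4.53, 4.39 and 4.12 in EMB_LG (2.95, SE 0.68, adjusted p = 0.0186). RALFL19 (AT2G33775), a peptide of the pollen tube, was at 4.20, 6.25 and 7.04 against 1.85 to 3.80 (3.24, SE 0.61, adjusted p = 0.00342), and ANX2 (AT5G28680), a receptor kinase of the pollen tube, was at 5.0, 4.34 and 8.20 against 1.34 to 3.98 (3.39, SE 0.67, adjusted p = 0.00491). These 3 were among the 12 largest rises with a symbol. Outside the list, RALFL8 (AT1G61563) was the largest rise with a symbol, 4.01 (SE 1.05, adjusted p = 0.0416), followed by the proton pump HA8 (AT3G42640, 3.41). GLP8, RBL5, BGAL11, GLOX1, CWINV2, VGDH2 and EXL6 rose by 2.85 to 3.38. VGDH2 (AT3G62170) is a pectin methylesterase and CWINV2 (AT3G52600) an invertase of the cell wall.

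QC_LG 3 had the highest level of each of these 12 rises. Without it, 0 of the 22 pollen genes were called in limma, 12 had an unadjusted p under 0.05, and the list median was 1.57. Of the 12 largest rises with a symbol, 0 kept their call without QC_LG 3 or with only the groups compared in the fit. Without EMB_LG 3 or EMB_LG 4, 3 and 4 members of the list were called, without QC_LG 1 it was 14, and without QC_LG 2 it was 10. The summed intensity of the pollen list was 702.5, 1767 and 5279 in QC_LG 1, 2 and 3, against 239.5 to 589.9 in EMB_LG, 472.9 to 1137 in SUS_LG, 717.2 to 2516 in VSC_LG and 259.5 to 356.9 in GSC_LG. The sperm genes HAP2 (AT4G11720) and GEX2 (AT5G49150) did not differ beyond the test (-0.23 and -0.14, adjusted p = 0.827 and 0.931). Whether RNA from pollen or pollen tubes had a part in the rises was not tested.

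Among the largest rises named here, those that did not rest on QC_LG 3 were loci without a symbol. Smaller rises, such as that of JAZ1 below, also kept their call without that array. AT1G30974, a protein-coding locus, was at 8.56, 9.85 and 8.00 in QC_LG and at 1.70, 3.67, 2.72 and 2.39 in EMB_LG. This was the largest rise of all loci, 6.18 (SE 0.98, adjusted p = 0.000479), and it was called in all 15 alternative fits. It was also at 8.29, 4.53 and 8.69 in GSC_LG, where its arrays overlap with QC_LG, and at 0.61 to 3.46 in SUS_LG and VSC_LG. AT3G44570 was at 7.37, 5.21 and 6.75 in QC_LG, at 1.73 to 2.29 in EMB_LG and at 1.61 to 4.90 in the other cell types. It rose by 4.35 (SE 0.78, adjusted p = 0.00206) over EMB_LG and by 3.84 (SE 0.67, adjusted p = 0.00642) over the mean of the other cell types, with all 3 QC_LG arrays above the other 14. AT1G35490 rose by 4.48 (SE 0.62, adjusted p = 0.000101) and was called in all 15 alternative fits, while AT3G26860 (4.83) lost its call without QC_LG 3. Over the mean of the other cell types AT1G35490 was higher by 2.448, a smaller difference than that from EMB_LG.

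Of 19 stress genes 1 was called, higher, where 0.733% of all loci were. The list median was 0.384, and it was -0.023 without QC_LG 3, 0.667 without QC_LG 2 and 0.235 without EMB_LG 3. JAZ1 (AT1G19180), a repressor of jasmonate signalling, was at 7.30, 6.10 and 6.54 in QC_LG and at 4.39, 4.05, 5.07 and 4.95 in EMB_LG and rose by 2.03 (SE 0.44, adjusted p = 0.0104), a call lost without QC_LG 1 and with only the groups compared in the fit. The transcription factors ZAT10 (AT1G27730) and DREB2A (AT5G05410) differed by 2.54 and 1.78 and missed the threshold (adjusted p = 0.105 and 0.102). Without QC_LG 2, 4 of the 19 were called higher: JAZ1 by 2.30, ZAT10 by 3.43, WRKY40 by 2.75 and DREB2A by 2.37. JAZ1 was at 4.95 to 7.36 in the other cell types, which overlap with QC_LG. The list's summed intensity was 235.3 to 527.9 in QC_LG, 157.2 to 222.9 in EMB_LG and 419.7 to 1502 over the other cell types. The heat shock gene HSP70 (AT3G12580) differed from EMB_LG by -0.69 (adjusted p = 0.712) and was lower than the mean of the other cell types by -2.08 (adjusted p = 0.033), being at 2.26 to 3.55 in QC_LG, 2.70 to 3.80 in SUS_LG and 4.96 to 7.05 in VSC_LG and GSC_LG.

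The markers of neighbouring embryo tissues mostly did not pass. CUC1 (AT3G15170), a factor of the boundary between cotyledons, was the 1 of 18 shoot apex and cotyledon genes called, where 0.765% of all loci were called lower. It was at 3.64, 3.52 and 3.53 in QC_LG and 5.93, 4.63, 4.63 and 4.62 in EMB_LG. It fell by 1.39 (SE 0.35, adjusted p = 0.0358), a call kept in 7 of 15 alternative fits. Of the fits without 1 array, it was lost in those without any of the QC_LG arrays or EMB_LG 1. Of 12 protoderm genes 0 were called in limma and 3 had an unadjusted p under 0.05, with the nearest, PDF1 (AT2G42840), an epidermal surface protein, at 4.4 to 6.43 against 6.65 to 8.04 (-1.73, adjusted p = 0.0644). Of 10 suspensor genes 0 were called and 2 had an unadjusted p under 0.05, and HDG11 (AT1G73360) differed by -1.25 (adjusted p = 0.136) and WOX9 (AT2G33880) by -0.02. Of 21 vascular genes 0 were called and 4 had an unadjusted p under 0.05. T5L1 (AT1G68810), a partner of LHW in vascular divisions, was at 3.72, 3.27 and 4.57 in QC_LG and at 1.92 to 2.98 in EMB_LG (1.27, adjusted p = 0.0879), and it was higher than the mean of the other cell types by 1.39 (adjusted p = 0.0426). Of 8 ground tissue genes 0 were called and 2 had an unadjusted p under 0.05. The 4 root cap factors, FEZ, SMB, BRN1 and BRN2, differed by -0.41 to 0.27, with 0 called and 0 at an unadjusted p under 0.05. All these tests were made with limma.

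Markers of tissues around the embryo were no higher beyond the test. Of 19 seed coat genes 0 were called in limma and 2 had an unadjusted p under 0.05, TT2 (AT5G35550, 1.75, adjusted p = 0.18) and TT19 (AT5G17220, 1.12, adjusted p = 0.24). Their summed intensity was 1235 to 2075 in QC_LG, 1087 to 1654 in EMB_LG and 2065 to 3540 in SUS_LG. Of 14 endosperm genes 0 were called in limma and 0 had an unadjusted p under 0.05, with sums of 71.91 to 95.11 in QC_LG and 72.54 to 90.25 in EMB_LG, and ZOU (AT1G49770), an endosperm factor, was at 1.82 to 2.44 in QC_LG. The seed coat enzymes TT4 and LDOX were at 7.78 to 8.59 and 7.59 to 9.33 in QC_LG and no lower than 7.41 in EMB_LG. The part of RNA from these tissues in the differences was not tested. Seed maturation (19 genes) and secondary wall genes (18 genes) had 0 calls in limma, with 1 unadjusted p under 0.05 in each list. The summed intensity of the secondary wall list was 547.5 in QC_LG 1, 160.7 in QC_LG 2 and 123.5 in QC_LG 3. It was 127 to 164 in EMB_LG, 194.9 to 270.9 in SUS_LG, 453.2 to 939.3 in VSC_LG and 551.8 to 996.5 in GSC_LG.

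QC nuclei were then compared with nuclei of the other cell types. Against the mean of SUS_LG, VSC_LG and GSC_LG, 133 loci were called (0.478%), 92 higher (0.331%) and 41 lower (0.147%). This is also the test of whether the signed difference of QC_LG from EMB_LG equalled the mean difference of those cell types, since the EMB_LG mean cancels. A call does not tell which of them lay farther from EMB_LG, as TOC132 and RD28 below show. Without QC_LG 3 the count was 55, without QC_LG 1 it was 381, without SUS_LG 2 it was 84, and without GSC_LG 2 it was 74. It was 88 with median centring, 81 with array weights and 57 with the interquartile range as a covariate. With only the groups compared in the fit, 2 loci were called, 0 of them lower, with the loss of each of the 13 named genes rerun in this comparison, WIP4, WOX5 and RCI2B among them. Of the 92 higher loci, 23 had all 3 QC_LG arrays above the other 14 arrays of the stage, a pattern found at 0.341% of all loci, and of these 23, 10 had a symbol. WIP4 was among them. JOSL (AT2G29640), a Josephin-like protein, was at 3.94, 3.08 and 4.29 in QC_LG, at 1.92 to 2.46 in EMB_LG and at 1.51 to 2.44 in the other cell types. It was 1.77 (SE 0.28, adjusted p = 0.00221) above the mean of those and 1.61 (SE 0.32, adjusted p = 0.00467) above EMB_LG. The first of these calls was kept in 20 of 21 alternative fits and the second in 13 of 15.

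MED9 (AT1G55080), a subunit of the Mediator complex, was at 3.94, 4.33 and 5.27 in QC_LG and at 1.77 to 3.26 in all other groups of the stage (2.07 above the mean of the other cell types, SE 0.37, adjusted p = 0.00687). CNGC6 (AT2G23980), a cyclic nucleotide-gated ion channel, was at 4.01, 3.55 and 4.88 and elsewhere at 1.77 to 3.38 (1.5, SE 0.33, adjusted p = 0.0252). Both of these calls were lost without QC_LG 3, as was that of WIP4 in this comparison. ARF14 (AT1G35540) was 2.2 above the mean of the other cell types (adjusted p = 0.0221), with 5.89 in QC_LG 3 against 2.77 and 3.91 in QC_LG 1 and 2, and lost its call without that array. It has close copies nearby in the genome, so its value is uncertain. The other 5 with a symbol, named after their values were seen, were TGA4, AGD11, LCR40, MYB115 and GolS6, higher by 1.02 to 1.47. Of these, MYB115 (AT5G40360), a MYB factor, was also higher than in EMB_LG by 1.40 (adjusted p = 0.0174). CYP83B1 (AT4G31500), an enzyme of indole glucosinolate synthesis that bears on auxin level, was 2.84 above the mean of the other cell types (SE 0.40, adjusted p = 0.0011). It was at 4.04, 4.94 and 6.29 in QC_LG, at 1.24 to 3.24 in the other cell types and at 3.34 to 4.21 in EMB_LG, where it overlaps with QC_LG.

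**Figure D5:**
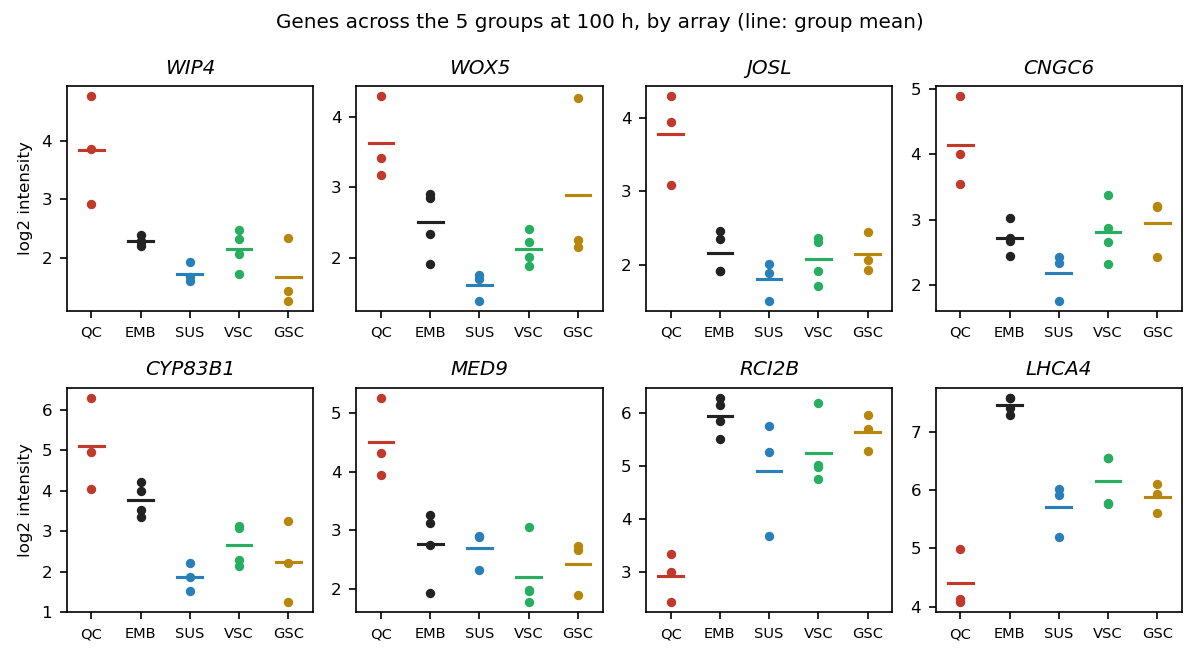
Level (log2 intensity, vertical axes, which differ between panels and do not start at 0) of 8 genes in every array of the 5 groups of the stage, with lines at group means. WIP4, JOSL, CNGC6 and MED9 are highest in all 3 QC_LG arrays, WOX5 overlaps with GSC_LG 2, CYP83B1 overlaps with EMB_LG, and RCI2B and LHCA4 are lowest in QC_LG.

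Of the 41 loci below the other cell types, 14 had all QC_LG arrays below the other 14 arrays, a pattern found at 0.262% of all loci, and 10 of these had a symbol. RCI2B was lower by -2.34 (SE 0.41, adjusted p = 0.00642), and PSBTN by -1.73 (adjusted p = 0.0252). FKBP12 (AT5G64350), an immunophilin, was at 5.48, 4.81 and 4.96 in QC_LG and at 5.80 to 8.08 elsewhere at this stage, and it was lower by -1.78 (adjusted p = 0.0252). GTE2 (AT5G10550), a bromodomain protein, was lower by -1.72 (adjusted p = 0.0186). TOC132 (AT2G16640), a receptor for protein import into plastids, was at 3.49, 2.09 and 1.80 in QC_LG and at 3.62 to 5.91 in the other cell types (-2.28, adjusted p = 0.0127), but at 2.85 to 3.5 in EMB_LG. The aquaporin RD28 (AT2G37180) had the same pattern, -1.83 below the other cell types (adjusted p = 0.0167) and -0.43 from EMB_LG (adjusted p = 0.807). The calls of TOC132, FKBP12 and PSBTN in this comparison were lost without QC_LG 2 and without QC_LG 3, that of PSBTN also without QC_LG 1, that of RD28 without QC_LG 3 and that of GTE2 without QC_LG 2. Those of FKBP12 and GTE2 were also lost with array weights and with the interquartile range as a covariate.

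Taken one cell type at a time, QC_LG differed at 28 loci from SUS_LG (0.101%, with 0.0755% higher and 0.0252% lower), at 19 from VSC_LG (0.0683%, with 0.0395% higher and 0.0288% lower) and at 861 from GSC_LG (3.09%, with 1.18% higher and 1.92% lower). These comparisons share the QC_LG arrays with each other and with that against EMB_LG, and single arrays moved their counts. Against SUS_LG the count was 107, 43 and 6 without QC_LG 1, 2 and 3, and 14, 0 and 3 without SUS_LG 1, 2 and 3, where the 0 stood beside 1860 loci at an unadjusted p under 0.05 in limma. Against VSC_LG it was 49 and 9 without QC_LG 1 and 3, and 4, 7 and 10 without VSC_LG 1, 2 and 3. Against GSC_LG it was 371 and 483 without QC_LG 2 and 3, and 485 and 199 without GSC_LG 1 and 2. With the interquartile range of each array as a covariate it was 66. For the single genes named against GSC_LG, here and above, the result of that fit is not given. WIP4 was higher than in SUS_LG by 2.11 (adjusted p = 0.0209) and than in GSC_LG by 2.16 (adjusted p = 0.00314), and its difference of 1.69 from VSC_LG did not pass (adjusted p = 0.0708). The cytokinin-activating enzyme LOG4 (AT3G53450) of the vascular list was lower than in VSC_LG by -2.90 (adjusted p = 0.0468). The seed coat regulator TT8 (AT4G09820) was lower than in SUS_LG by -2.64 (adjusted p = 0.0209). The genes lower than in GSC_LG, of which examples were chosen after their values were seen, included the shoot factor FIL (AT2G45190) by -2.86 (adjusted p = 0.00154), VIM1 by -3.83 (adjusted p = 0.00194) and the vascular factor PHB (AT2G34710) by -2.11 (adjusted p = 0.0179). Of the 22 pollen genes 11 were higher than in GSC_LG.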

How the data were processed

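Nuclear RNA was hybridised to 38 arrays of 11 groups. The deposited values are intensities on a linear scale, made by the authors with RMA (background correction, normalization between arrays and summary per locus), per the submitters' processing notes. No source used here gives the RMA version, the probe set definition or the genome build. These deposited intensities ran from 0.974 to 3529.4, and the number of arrays limits the precision. They were turned into log2 values and fitted with limma 3.58.1 in R 4.3.3, with 1 mean per group over all 38 arrays, so that all groups share 1 estimate of the spread (27 residual degrees of freedom), and empirical Bayes moderation. Benjamini-Hochberg adjustment covered 27826 loci, tests were two-sided, and the threshold was 0.05. Symbols came from a RefSeq gene table (TAIR10.1), which held 27241 of the loci and gave 10556 a symbol; 176 loci have exactly the values of another locus. Tables and plots were made with Python 3.11.15 and matplotlib 3.10.9.

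Named were, of the called loci with a symbol and no overlap between QC_LG and EMB_LG arrays, the 12 that rose most and the 12 that fell most, the 4 largest of each direction without a symbol, all 21 quiescent centre factors, called genes or those of smallest p from the other lists, the 2 brightest genes of lists of other cell types, and, against the other cell types, the 6 largest rises and falls. Other list genes were named after their values were seen. The members and the gene lists were chosen with earlier results of these data known. Alternatives were quantile normalization, median centring, a filter on dim loci, array weights, 2 other priors, a 2-fold threshold, the interquartile range as a covariate, the replicate number as a block, only the groups compared, and leaving out each array. The fit was tested on simulated data with the same spread in every group at a locus. That test does not cover loci where the QC_LG arrays vary more than the shared estimate. Reruns of list counts and of genes named against the other cell types were added after seeing the data.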

Additional observations from a re-analysis of the deposited data

Results flagged for a closer look

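In 8 of the 132 named genes 1 EMB_LG array lay apart from the other 3 by Dixon's test. Chance gives this in about 1 in 20 groups, so 8 is near the number that chance alone would give. The level was 6.793 for RALFL8 in EMB_LG 1 (the next array at 4.453), 5.084 for SHR in EMB_LG 4 (next 4.587), 3.273 for BRAVO in EMB_LG 2 (next 2.184) and 3.017 for TEL2 in EMB_LG 3 (next 2.569). ARF10 had its low value, 2.331, in EMB_LG 4 (next 3.053). CUC1 was at 5.933 in EMB_LG 1 (next 4.628), PSAF at 7.875 in EMB_LG 3 (next 6.961), and EXT4 had its low value, 5.048, in EMB_LG 4 (next 6.555).

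QC_LG was tested in limma against the mean of the other 3 cell types on the log2 scale, where 0.478% of all loci were called. In 25 of the 132 named genes the difference of QC_LG from EMB_LG was not the same as the mean difference of those cell types from EMB_LG. This count cannot be set against the share over all loci. Some of these genes were named because they were called in this comparison, and others for large differences of QC_LG from EMB_LG. It was more positive for AT1G30974 (5.077), AT3G44570 (3.838), CYP83B1 (2.838), AT2G15880 (2.55), AT1G35490 (2.448), RBL5 (2.407), EXL6 (2.31), ARF14 (2.199), MED9 (2.071), AT4G33970 (2.044) and WIP4 (1.989). The same held for JOSL (1.767), CNGC6 (1.5), WOX5 (1.419) and T5L1 (1.393). It was more negative for AT2G07600 (-2.754), RBCS1B (-2.383), RCI2B (-2.344), TOC132 (-2.284), MT1A (-2.009), RD28 (-1.828), FKBP12 (-1.78), PSBTN (-1.726), GTE2 (-1.719) and LHCA4 (-1.523).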

How the results depend on the processing

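Of the 132 named genes rerun against EMB_LG under 15 alternatives, 53 were called at first, 16 of them in every alternative, and 72 were called neither at first nor in any alternative. The direction differed between alternatives in 0 of the 53 and in 11 of the others, SHR, BBM, SCR, ERF115, NTT and WOX9 among them. The 16 are AT1G30974, AT1G35490, AT3G44570, AT3G22121, AT5G17900, RBCS1B, GRP9, PYK10, CWLP, PSBTN, LHCA4, RCI2B, PSRP4, CA1, LHCB5 and LHCB2.2. Against EMB_LG, quantile normalization turned 417 calls into 664, only the groups compared gave 43, and the count ran from 149 to 624 over the fits that leave out 1 array. Against the mean of the other cell types, the 133 became 88 with median centring, 81 with array weights, 57 with the array spread as a covariate and 2 with only the groups compared, and ran from 55 to 381 without 1 array. Quantile normalization gave 59 calls against SUS_LG, 44 against VSC_LG and 546 against GSC_LG. Only the groups compared gave 1, 1 and 55, and the spread covariate gave 29 against VSC_LG and 66 against GSC_LG. Without 1 array the counts ran from 0 to 107 against SUS_LG (the 0 is without SUS_LG 2, with 1860 loci at an unadjusted p under 0.05 in limma), from 4 to 49 against VSC_LG and from 199 to 1163 against GSC_LG. With only the groups compared, 7 photosynthesis genes and 3 ER body and wall genes were lower and 0 pollen genes higher in limma, with 16 pollen genes at an unadjusted p under 0.05. Without 1 array these counts ran from 14 to 20, from 4 to 6 and from 0 to 14, and quantile normalization gave 14 pollen genes. A fit with only the groups compared has fewer samples to estimate the spread and takes it from those groups alone. These changes cannot be told apart here, and for the other settings the cause was not tested.

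No pairing by replicate number was seen, though correlations this small in so few arrays cannot decide the point. Deviations from the group means correlated at 0.034, 0.085 and -0.058 for numbers 1, 2 and 3 of QC_LG and EMB_LG. QC_LG 1 correlated best with its own number, whereas QC_LG 2 and 3 each correlated better with another number. With the replicate number as a block, 439 loci were called against EMB_LG, 124 against the mean of the other cell types, and 22, 17 and 862 against SUS_LG, VSC_LG and GSC_LG. With 3 QC_LG arrays, of which QC_LG 2 and 3 stand apart in different ways, counts are less firm than the genes called in every alternative. Signal over background was not analysed here, and many QC factors lay near the bottom of the intensity range.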
